A study of Mus musculus with 6 samples.

Results

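Genes named for the glutathione, peroxiredoxin and thioredoxin antioxidant systems were followed in fat from NOD mice, which are prone to autoimmune diabetes. Not all of them encode antioxidant enzymes, and Txnip, for example, binds thioredoxin and blocks it. The genes were chosen by a rule on names, made with earlier results of these data known. It took genes whose symbol starts with Gst, Mgst, Gpx, Prdx or Txn. It also took Sod1, Sod2, Sod3, Cat, Gclc, Gclm, Gsr, Gss, Nqo1, Hmox1 and Srxn1. This gave 64 of the 18193 genes that had a probe set of a single symbol on the array, each read by its brightest probe set. Of the 64 genes 58 passed a filter on mean signal over all arrays, and Gpx2, Gsta2, Gsto2, Gstp3, Txndc2 and Txndc8 did not. Total RNA was hybridised to 6 Affymetrix mouse arrays, 2 for each of 3 groups. The groups were AAT-treated NOD mice, which had received the plasma protease inhibitor alpha-1-antitrypsin (AAT) and were in stable reversion without need of insulin. The second group was diabetic NOD mice with glucose above 300 mg/dl on 3 consecutive days, and the last was normoglycemic NOD females of 10 weeks. Dose, duration, age and sex are not given for the AAT-treated mice, nor age and sex for the diabetic mice. Whether a group's 2 arrays stand for different animals is not stated, and the p-values therefore cover only variation among these samples, part of which may be technical.

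Cells remove hydrogen peroxide and lipid peroxides through a pair of thiol systems. Glutathione, made from glutamate, cysteine and glycine, is spent by glutathione peroxidases and by glutathione transferases, which attach it to reactive aldehydes and foreign compounds, and glutathione reductase restores it with NADPH. Thioredoxin, restored by thioredoxin reductase, in turn feeds the peroxiredoxins. Many of these genes are induced by the transcription factor Nrf2 (gene Nfe2l2). In fat cells the alpha class transferase Gsta4 is known for clearing 4-hydroxynonenal, an aldehyde from oxidised lipid, and Gpx3 and Sod3 encode secreted enzymes.

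The fat label was borne out by adipocyte transcripts: 8 of 10 listed markers were named on the array and 8 were kept, with Adipoq (adiponectin) at 15690 or more and Fabp4 at 85600 or more on every array. RNA measures differed between arrays. For beta-actin the 3′ over 5′ signal ratio, which rises with degraded or incompletely copied RNA, was 9.08 and 5.87 in AAT-treated, 15.2 and 15.5 in diabetic, and 3.63 and 4.30 in normoglycemic fat. The mean signal of 18 probe sets for added hybridisation controls was highest on normoglycemic 1 (128547) and AAT-treated 2 (86286), against 25159 to 48494 elsewhere. Those arrays also stood apart in profile: normoglycemic 1 correlated with the other 5 arrays at 0.755 to 0.839 over 13043 genes, and AAT-treated 2 at 0.821 to 0.877.

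In diabetic against normoglycemic fat the smallest unadjusted p-values of the members were those of Gpx1, Gsta3, Gclm and the thioredoxin-binding gene Txnip, all with lower signals in diabetic fat, while Mgst2 and Gstt4 had higher signals there. No difference of a member passed the test: by limma with Benjamini-Hochberg adjustment over 13043 genes, 0 genes passed between diabetic and normoglycemic fat (0% of genes; 1291 genes, 9.9%, had an unadjusted p under 0.05), and the smallest adjusted p of a member was 0.459. Of the 58 members 37 had a difference below 0, where 53.6% of all genes did. The median log2 difference of the members was −0.19, against −0.06 over all genes, and over the 64 members without the filter it was −0.22. At an unadjusted p under 0.05, 7 members were lower, where the share over all genes was 4.62%, and 2 were higher, where it was 5.27%. The 7 include Gpx6, which passed the filter through its level in normoglycemic fat, so its call lends no support. Every diabetic array lay below every normoglycemic array for 21 members (36.2%; 24.5% of all genes) and above for 11 members (19.0%; 20.2% of all genes). Gpx6 was again among the 21 lower members. The lower count was 25 without diabetic 1 (38.6% of all genes) and 30 without diabetic 2 (36.7%). It was 30 without normoglycemic 1 (36%) and 28 without normoglycemic 2 (44.9%). The higher count was 19 without diabetic 1 (32.6% of all genes) and 19 without normoglycemic 2 (36.1%). The 7 lower members became 2 when normoglycemic 1 was left out and 4 when diabetic 1 was left out. The 2 higher members became 0 without normoglycemic 1 or diabetic 2, 1 without diabetic 1 and 4 without normoglycemic 2, and the median ran from −0.30 to −0.09 when single arrays were left out. In bulk tissue, fewer cells of a type and less RNA per cell cannot be told apart.

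In AAT-treated against diabetic fat the members' differences ran in both directions. By limma 0 members and 0 of 13043 genes passed (0% of genes; 622 genes, 4.77%, had an unadjusted p under 0.05), with a smallest adjusted p of 0.961 among the members. The difference was below 0 for 28 of 58 members and for 48.8% of all genes, with medians of 0.02 and 0.01. Unadjusted, 3 members were higher (Txnip, Gpx1 and Gstm1; 2.94% of all genes) and 3 lower (Mgst2, Sod2 and Txnrd3; 1.83% of all genes). The count of lower members was 0 without AAT-treated 2, 0 without diabetic 1 and 1 without either normoglycemic array, and the count of higher ones was 1 without AAT-treated 2. Without AAT-treated 1 there were 5 in each direction. The groups did not overlap for 10 higher members (17.9% of all genes) and 9 lower ones (15.9% of all genes). Without 1 AAT-treated or diabetic array these counts were larger for members and for all genes, since 1 array against 2 overlaps less often. The lower members were 23 without diabetic 1 (30.9% of all genes) and 13 without diabetic 2 (30.2%). They were 18 without AAT-treated 1 (33%) and 18 without AAT-treated 2 (35.9%). The higher members were 15 without diabetic 1 (32.4% of all genes) and 26 without diabetic 2 (32.5%). They were 27 without AAT-treated 1 (44.1%) and 14 without AAT-treated 2 (28.6%). Without either normoglycemic array the counts stayed at 10 and 9. Against normoglycemic fat, AAT-treated fat had 36 of 58 members below 0, where 52% of all genes were, with a median of −0.18 against −0.03 over all genes. By limma 0 members and 0 genes passed this comparison too (0% of genes; 669 genes, 5.13%, had an unadjusted p under 0.05), and the smallest adjusted p of a member was 0.923. Unadjusted, 1 member was lower (Gpx6, which passed the filter through normoglycemic fat; 1.72% of all genes) and 0 were higher (3.41% of all genes). The lower count was 3 without AAT-treated 2, 2 without AAT-treated 1, and 0 without normoglycemic 1 or diabetic 2, and the higher count was 4 without normoglycemic 2. The groups did not overlap for 17 lower members (16.1% of all genes) and 6 higher ones (16% of all genes). The lower count was 33 without AAT-treated 2 (41.3% of all genes) and 26 without normoglycemic 2 (39%), and the higher count was 17 without AAT-treated 1 (33.4%), 16 without AAT-treated 2 (33.2%) and 15 without normoglycemic 2 (34.3%). The 3 comparisons share arrays in pairs, so their values are not independent.

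**Figure D1:**
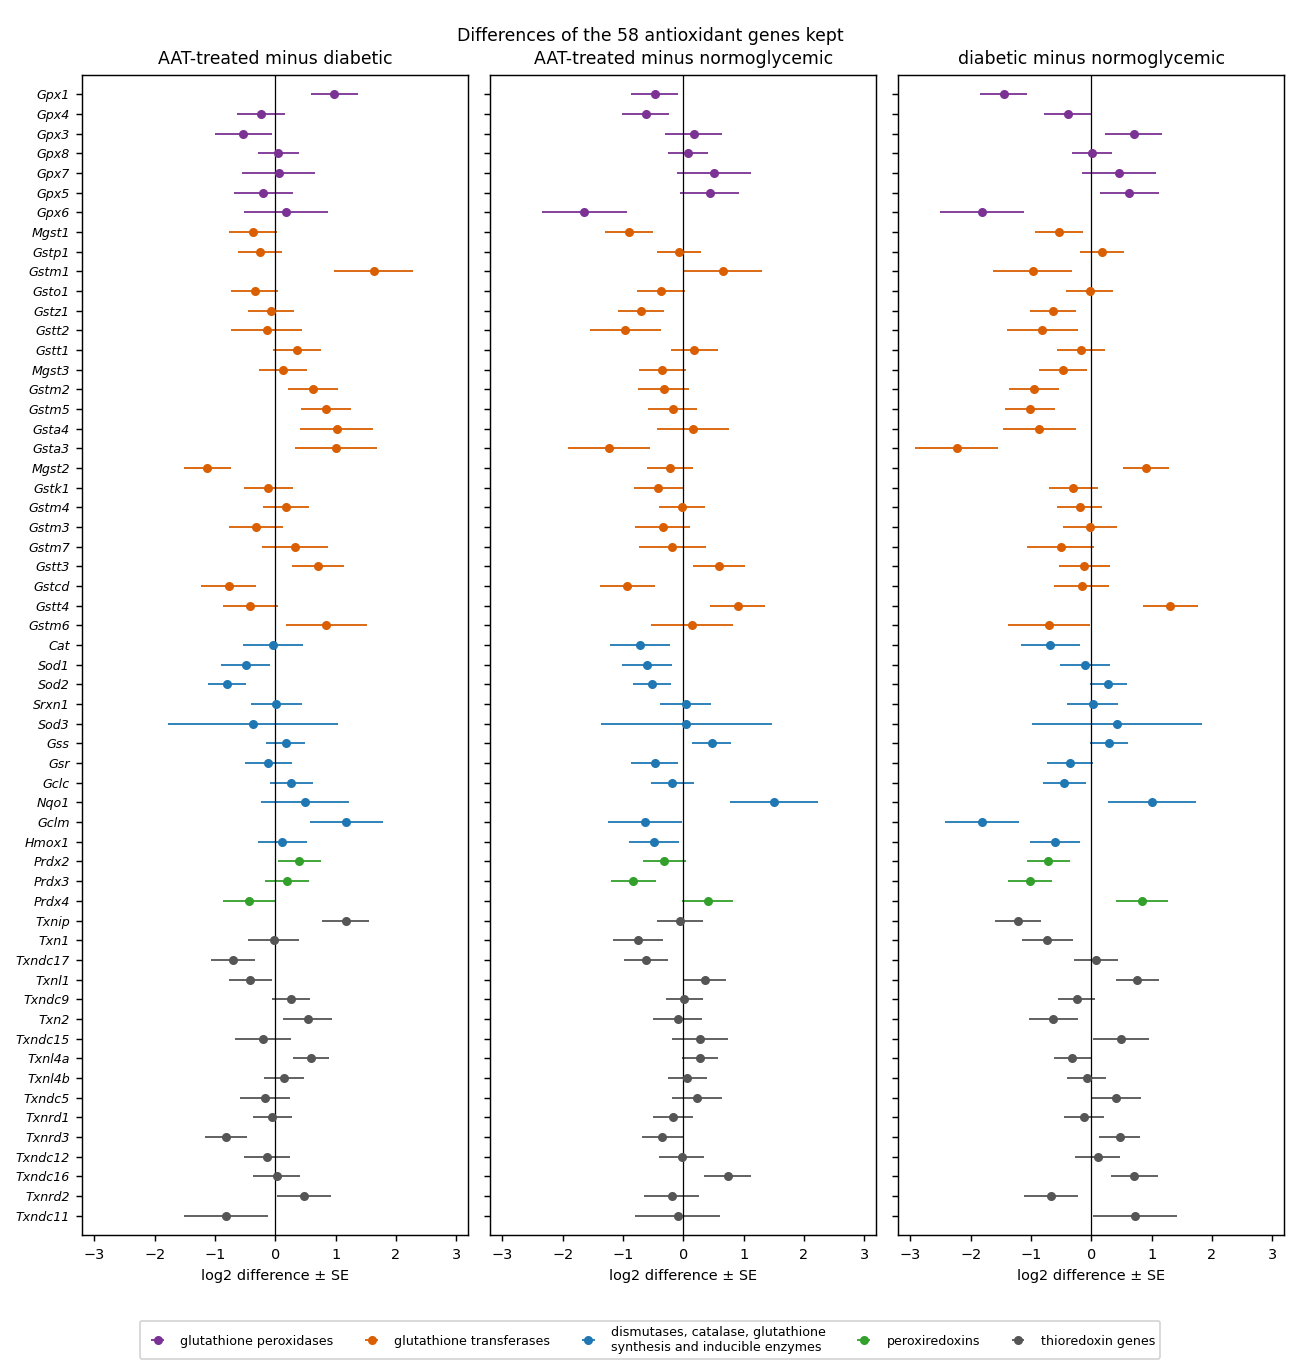
Log2 difference ± SE (limma, 2 arrays per group) of the 58 antioxidant genes kept, in rows grouped by family and ordered by mean signal, for AAT-treated minus diabetic, AAT-treated minus normoglycemic and diabetic minus normoglycemic fat. In the diabetic minus normoglycemic panel 18 of 21 transferases lie left of 0, where 53.6% of all genes had a difference below 0. No difference passed the adjusted test.

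Gpx1, the cytosolic and mitochondrial selenoenzyme that reduces hydrogen peroxide with glutathione, separated the 3 groups without overlap. Its signal was 28455 and 30704 in AAT-treated, 12565 and 17855 in diabetic, and 42164 and 40010 in normoglycemic fat. Both diabetic arrays were the lowest, and both AAT-treated arrays lay between the diabetic and the normoglycemic ones. The log2 difference was −1.45 ± 0.39 in diabetic against normoglycemic fat (limma adjusted p = 0.459), 0.98 ± 0.39 in AAT-treated against diabetic fat (adjusted p = 0.961) and −0.47 ± 0.39 in AAT-treated against normoglycemic fat (adjusted p = 0.923). Leaving out single arrays moved the first of these between −1.70 and −1.20. Gpx1 has a single probe set here. Its group order is the reverse of that of the beta-actin ratio, and the part of RNA quality in it was not tested.

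Txnip, which binds thioredoxin and blocks its active site and restrains glucose uptake, was also lowest in diabetic fat. Its signal was 20636 and 18988 in AAT-treated, 10705 and 7235 in diabetic, and 17598 and 24017 in normoglycemic fat. AAT-treated and normoglycemic arrays overlapped, and both lay above the diabetic ones. The difference was 1.16 ± 0.38 in AAT-treated against diabetic fat (adjusted p = 0.961), −0.05 ± 0.38 in AAT-treated against normoglycemic fat and −1.22 ± 0.38 in diabetic against normoglycemic fat (adjusted p = 0.481). A second kept probe set read 2145 and 3686 in AAT-treated, 1169 and 741 in diabetic, and 2888 and 3887 in normoglycemic fat, and its differences were 1.52, −0.25 and −1.77 in the same order of comparisons.

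**Figure D2:**
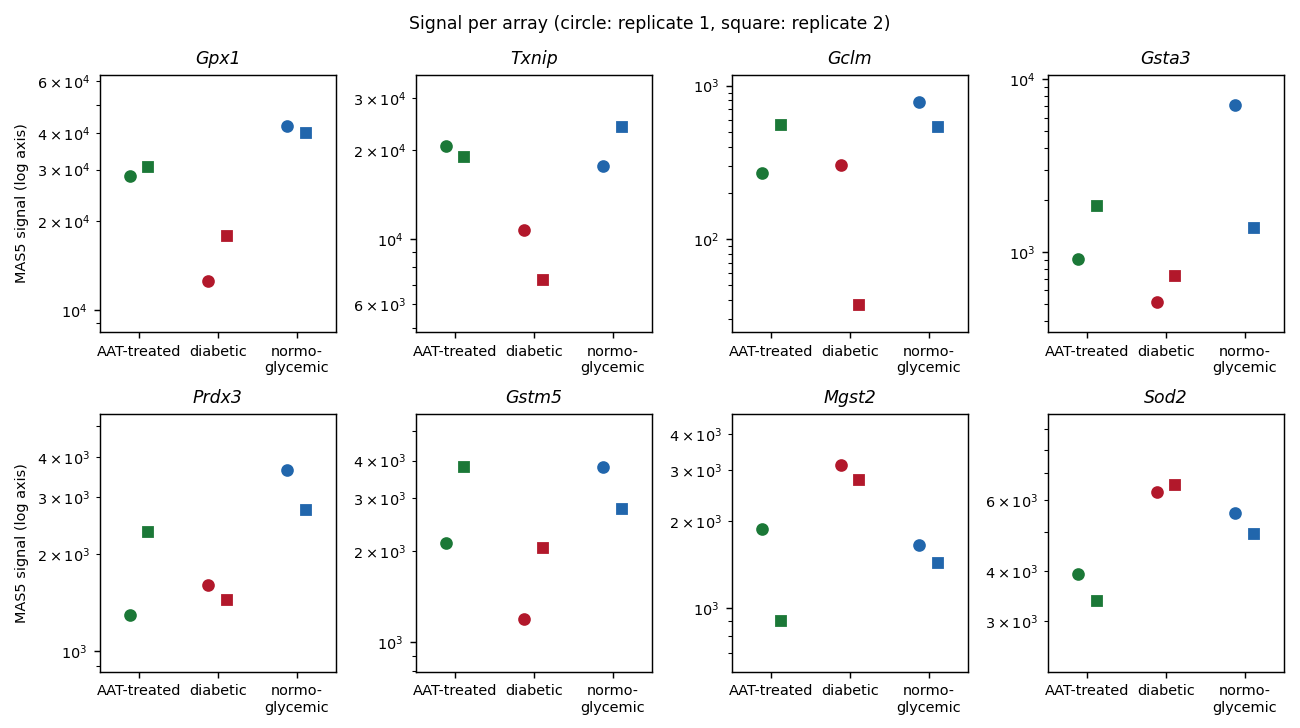
MAS5 signal (log axis) on each array for Gpx1, Txnip, Gclm, Gsta3, Prdx3, Gstm5, Mgst2 and Sod2 in AAT-treated, diabetic and normoglycemic fat, with circles for replicate 1 and squares for replicate 2. Gpx1 and Txnip are lowest in diabetic fat, at 12565 and 17855 and at 10705 and 7235, whereas Mgst2 is highest there, at 3127 and 2765.

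Promoter sequence is shown for the 4 genes with the smallest unadjusted p between diabetic and normoglycemic fat. Windows of 300 bases, from 250 before to 50 after a start site, were taken from RefSeq (GRCm38.p6), whose sequence is from C57BL/6J mice and not from NOD; 56 of the 64 members had 75 such windows. They were searched on both strands for TGAC and GC set 3 bases apart, the core of the antioxidant response element that Nrf2 binds with a small Maf partner, and for CACGNG and CNCGNG set 5 bases apart, a form of the carbohydrate response element bound by ChREBP and MondoA. The matches of the 2 motifs did not overlap. Capitals mark a match.
Txnip, chr3:96557707-96558006, plus strand: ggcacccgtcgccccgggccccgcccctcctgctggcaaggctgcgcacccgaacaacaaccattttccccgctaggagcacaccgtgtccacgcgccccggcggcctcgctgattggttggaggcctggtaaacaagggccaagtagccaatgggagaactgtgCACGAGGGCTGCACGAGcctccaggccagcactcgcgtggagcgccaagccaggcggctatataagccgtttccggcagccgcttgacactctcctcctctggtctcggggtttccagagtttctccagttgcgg
Gclm, chr3:122245307-122245606, plus strand: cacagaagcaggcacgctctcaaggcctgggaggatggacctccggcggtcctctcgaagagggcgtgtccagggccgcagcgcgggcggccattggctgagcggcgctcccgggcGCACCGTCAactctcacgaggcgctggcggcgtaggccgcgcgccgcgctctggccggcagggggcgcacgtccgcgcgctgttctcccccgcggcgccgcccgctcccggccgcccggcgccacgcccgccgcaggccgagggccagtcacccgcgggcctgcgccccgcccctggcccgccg
Gsta3, chr1:21240335-21240634, plus strand: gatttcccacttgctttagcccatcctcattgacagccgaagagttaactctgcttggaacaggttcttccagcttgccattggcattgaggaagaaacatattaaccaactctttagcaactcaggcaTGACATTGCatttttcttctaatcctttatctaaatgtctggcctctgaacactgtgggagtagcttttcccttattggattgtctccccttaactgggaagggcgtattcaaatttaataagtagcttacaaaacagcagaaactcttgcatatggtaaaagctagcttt
Gpx1, chr9:108338830-108339129, plus strand: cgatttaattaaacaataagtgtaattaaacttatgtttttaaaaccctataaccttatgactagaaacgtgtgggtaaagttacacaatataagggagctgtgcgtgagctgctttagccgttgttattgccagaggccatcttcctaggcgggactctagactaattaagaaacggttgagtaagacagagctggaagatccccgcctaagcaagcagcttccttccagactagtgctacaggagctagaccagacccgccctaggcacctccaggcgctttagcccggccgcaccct
The Txnip window held the carbohydrate response element, with its first base at −85 from the start site, and was the single member window to do so. Of all 32851 windows 0.37% held it, and 0.65% of those of genes kept by the filter. The antioxidant core was found at −134 in Gclm, on the minus strand, and at −121 in Gsta3. In all, 11 of 56 members (19.6%) had it in some window, against 16.7% of the genes kept and 14.0% of all genes with a window. The Gpx1 window held neither. These matches are descriptions of letters and not evidence of binding.

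The other kept glutathione peroxidases gave mixed values, with Gpx4 and Gpx6 below 0 and the remaining 4 above 0 in diabetic against normoglycemic fat. Gpx4, which reduces lipid peroxides in membranes, had signals of 15089 and 12083 in AAT-treated, 12529 and 20216 in diabetic, and 19784 and 22077 in normoglycemic fat. The diabetic arrays overlapped the normoglycemic ones, and the difference was −0.39 ± 0.39. A second kept probe set of Gpx4 differed by 0.59, the other way. The secreted plasma enzyme Gpx3, which fat makes in quantity, was at 20211 and 8234 in AAT-treated, 19387 and 17956 in diabetic, and 10168 and 12880 in normoglycemic fat. Both diabetic arrays were above both normoglycemic arrays, by 0.70 ± 0.47 (adjusted p = 0.620), and the AAT-treated arrays spanned the other groups. Gpx6 was weak and had the largest difference of the 7 kept peroxidases between diabetic and normoglycemic fat, with signals of 17.3 and 159 in AAT-treated, 14.4 and 114 in diabetic, and 458 and 317 in normoglycemic fat. The Gpx6 difference was −1.64 ± 0.70 in AAT-treated against normoglycemic fat (adjusted p = 0.923) and −1.82 ± 0.70 in diabetic against normoglycemic fat (adjusted p = 0.490). Gpx6 passed the filter of 164.4 on the mean signal through its level in normoglycemic fat, so its call lends no support. Values this near the offset of 74.5 that was added before taking logs understate differences. Gpx5, Gpx7 and Gpx8 differed by 0.63, 0.45 and 0.02 between diabetic and normoglycemic fat, each with an SE of 0.33 to 0.61.

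Among the glutathione transferases, 18 of the 21 kept had differences below 0 in diabetic against normoglycemic fat, where 53.6% of all genes did. Their median was −0.48, and 8 (38.1%) lay below normoglycemic fat without overlap, where 24.5% of all genes did. Of the 18, Gstcd, Gstk1, Gstm3, Gstm4, Gstm7, Gsto1, Gstt1, Gstt2 and Gstt3 turned in sign under at least 1 of the 14 alternatives in processing. The alpha class member Gsta3 had signals of 912 and 1857 in AAT-treated, 514 and 732 in diabetic, and 7102 and 1387 in normoglycemic fat. The diabetic arrays were the lowest, but normoglycemic 1 was far above all others. The difference was −2.23 ± 0.68 in diabetic against normoglycemic fat (adjusted p = 0.481), and it was −1.08 without normoglycemic 1 and −3.38 without normoglycemic 2. A second probe set of Gsta3 read 519 and 880 in AAT-treated, 942 and 1712 in diabetic, and 2117 and 713 in normoglycemic fat, a difference of 0.04. The 2 probe sets therefore do not give the same account of Gsta3. Gsta4 was at 1484 and 5633 in AAT-treated, 969 and 2013 in diabetic, and 2895 and 2345 in normoglycemic fat, a difference of −0.86 ± 0.60 between diabetic and normoglycemic fat that ran from −1.36 to −0.36 as single arrays were left out.

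All 7 mu class genes, whose enzymes conjugate a wide range of electrophiles, had differences below 0 in diabetic against normoglycemic fat, from −1.01 to −0.02. Over all genes 53.6% were below 0. Of the 7, 4 did not overlap (24.5% of all genes were lower without overlap), and Gstm3, Gstm4 and Gstm7 turned in sign under some alternatives. Gstm5 was at 2130 and 3813 in AAT-treated, 1194 and 2051 in diabetic, and 3809 and 2758 in normoglycemic fat (−1.01 ± 0.41 in diabetic against normoglycemic fat, adjusted p = 0.496). Gstm2 differed by −0.95 ± 0.42 in that comparison. Gstm1 had signals of 5533 and 27429 in AAT-treated, 3349 and 4617 in diabetic, and 8044 and 7555 in normoglycemic fat. Its level on AAT-treated 2 was the highest by far, and the other 3 kept probe sets were also highest on that array. In AAT-treated against diabetic fat Gstm1 differed by 1.63 ± 0.65 (adjusted p = 0.961), with a range of 0.48 to 2.78 as single arrays were left out; the value of 0.48 was without AAT-treated 2. That array also held the highest summed signal of the 8 mammary epithelium markers, 10179 against 1680 on AAT-treated 1, 3334 and 1942 in diabetic, and 4008 and 2058 in normoglycemic fat. The keratins carried that sum, with Krt18 at 5150, Krt8 at 2237 and Krt5 at 1742, whereas Epcam at 153 was at its lowest of the 6 arrays and the milk protein gene Wap was at 131. The part of these cells in the Gstm1 signal was not tested. The mu class genes are close copies, and probe sets may read more than 1 of them.

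The microsomal transferases, membrane enzymes that also act in leukotriene metabolism, were split. Mgst1, among the brightest members, was at 27886 and 23179 in AAT-treated, 30396 and 35398 in diabetic, and 52370 and 43224 in normoglycemic fat. The groups were fully separated, with differences of −0.37 ± 0.40 in AAT-treated against diabetic, −0.90 ± 0.40 in AAT-treated against normoglycemic (adjusted p = 0.923) and −0.54 ± 0.40 in diabetic against normoglycemic fat. Mgst2 ran the other way between diabetic and normoglycemic fat, at 1877 and 902 in AAT-treated, 3127 and 2765 in diabetic, and 1643 and 1432 in normoglycemic fat. Its difference was −1.13 ± 0.38 in AAT-treated against diabetic fat (adjusted p = 0.961) and 0.91 ± 0.38 in diabetic against normoglycemic fat (adjusted p = 0.498). Both diabetic arrays were the highest of the 6 for Mgst2. Mgst3 differed by −0.48 ± 0.40 between diabetic and normoglycemic fat.

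The theta class gene Gstt4 was at 250 and 231 in AAT-treated, 328 and 361 in diabetic, and 69.1 and 124 in normoglycemic fat, so both normoglycemic arrays were lowest. It differed by 0.90 ± 0.45 in AAT-treated against normoglycemic fat (adjusted p = 0.923) and by 1.31 ± 0.45 in diabetic against normoglycemic fat (adjusted p = 0.481). Gstp1, the pi class enzyme, was nearly level at 12682 and 11503 in AAT-treated, 12250 and 16855 in diabetic, and 14390 and 11179 in normoglycemic fat. Gstcd, which carries a transferase domain, was at 221 and 169 in AAT-treated, 604 and 234 in diabetic, and 442 and 429 in normoglycemic fat. Both AAT-treated arrays were the lowest for Gstcd, with −0.93 ± 0.46 against normoglycemic fat (adjusted p = 0.923). Of the 5 soluble transferases kept outside the alpha, mu and theta classes, all were below 0 in AAT-treated against normoglycemic fat, from −0.93 to −0.07. Over all genes 52% were below 0. Gsto1 and Gstp1 turned in sign there under at least 1 of the 14 alternatives in processing.

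Genes that make and restore glutathione gave mixed values. Gclm, the modifier subunit of glutamate-cysteine ligase, which carries out the limiting step of glutathione synthesis, was at 267 and 558 in AAT-treated, 305 and 36.9 in diabetic, and 788 and 534 in normoglycemic fat. Both diabetic arrays were below both normoglycemic arrays, by −1.82 ± 0.61 (adjusted p = 0.481). The low reading on diabetic 2 weighed on this: without that array the difference was −0.93. The second kept probe set of Gclm read 262 and 414 in AAT-treated, 227 and 252 in diabetic, and 539 and 536 in normoglycemic fat, a difference of −0.96 without a low outlying reading. The catalytic subunit Gclc was at 414 and 603 in AAT-treated, 455 and 358 in diabetic, and 688 and 483 in normoglycemic fat, a difference of −0.45 ± 0.36 between diabetic and normoglycemic fat. Gss, which completes glutathione, was at 704 and 794 in AAT-treated, 643 and 667 in diabetic, and 616 and 438 in normoglycemic fat, and so was lowest in normoglycemic fat on this probe set (0.47 ± 0.32 in AAT-treated against normoglycemic, 0.29 ± 0.32 in diabetic against normoglycemic fat). Its second kept probe set gave −0.26 and −0.01 in these comparisons. Gsr, glutathione reductase, was at 539 and 505 in AAT-treated, 430 and 758 in diabetic, and 976 and 580 in normoglycemic fat, with overlap. Its other kept probe set was at 387 and 609 in AAT-treated, 123 and 177 in diabetic, and 729 and 479 in normoglycemic fat, a difference of −1.58 between diabetic and normoglycemic fat where the brighter one gave −0.36.

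Superoxide dismutases turn superoxide into hydrogen peroxide, which catalase breaks down. On their brightest probe sets these 4 genes were below 0 in AAT-treated against diabetic fat, with a median of −0.43, but Cat was at −0.04 and its second kept probe set gave 0.66. Sod2, the mitochondrial enzyme, was at 3934 and 3379 in AAT-treated, 6292 and 6541 in diabetic, and 5587 and 4953 in normoglycemic fat. The AAT-treated arrays were the lowest and the diabetic ones the highest, with −0.80 ± 0.31 in AAT-treated against diabetic fat (adjusted p = 0.961) and 0.28 ± 0.31 in diabetic against normoglycemic fat. The 2 other kept Sod2 probe sets differed by −0.49 and −0.40 in AAT-treated against diabetic fat. The cytosolic enzyme Sod1 was at 30788 and 26737 in AAT-treated, 36975 and 44179 in diabetic, and 51361 and 36743 in normoglycemic fat. AAT-treated arrays were again lowest, by −0.49 ± 0.41 against diabetic and −0.60 ± 0.41 against normoglycemic fat, while the 3 other kept probe sets of Sod1 gave 0.22, −0.79 and −0.05 against diabetic fat. Cat was at 31151 and 43219 in AAT-treated, 39930 and 35586 in diabetic, and 87864 and 41613 in normoglycemic fat. It differed by −0.68 ± 0.49 in diabetic against normoglycemic fat, with −0.14 without normoglycemic 1, where its signal was highest, and −1.22 without normoglycemic 2. The extracellular enzyme Sod3 varied most of all members, at 889 and 70.1 in AAT-treated, 28.2 and 2198 in diabetic, and 107 and 642 in normoglycemic fat, and with an SE of 1.41 its groups could not be told apart.

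The inducible enzymes gave no common direction. Nqo1, a quinone reductase and a textbook Nrf2 target, was at 601 and 666 in AAT-treated, 425 and 433 in diabetic, and 25.3 and 553 in normoglycemic fat. The single low reading on normoglycemic 1 weighed on its differences, which were 1.50 ± 0.73 in AAT-treated against normoglycemic fat (adjusted p = 0.923) and 1.01 ± 0.73 in diabetic against normoglycemic fat. Without that array they were 0.17 and −0.32, so the second turned in sign. AAT-treated arrays stood above diabetic ones for Nqo1, by 0.49 ± 0.73. Hmox1, which breaks down haem, was at 206 and 313 in AAT-treated, 278 and 189 in diabetic, and 334 and 448 in normoglycemic fat, with −0.60 ± 0.41 in diabetic against normoglycemic fat. Srxn1, which restores over-oxidised peroxiredoxins, was at 519 and 1249 in AAT-treated, 766 and 840 in diabetic, and 924 and 672 in normoglycemic fat. Its difference of 0.02 ± 0.42 in diabetic against normoglycemic fat was not shared by the other kept probe sets, at −1.19 and −0.85.

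Peroxiredoxins reduce peroxides through a reactive cysteine that thioredoxin restores. The mitochondrial Prdx3 was at 1292 and 2343 in AAT-treated, 1598 and 1442 in diabetic, and 3641 and 2736 in normoglycemic fat. Both normoglycemic arrays were the highest, with −0.83 ± 0.37 in AAT-treated against normoglycemic fat (adjusted p = 0.923) and −1.02 ± 0.37 in diabetic against normoglycemic fat (adjusted p = 0.481). Leaving out single arrays kept the difference between diabetic and normoglycemic fat within −1.22 and −0.82. Prdx2, a cytosolic enzyme abundant in red cells, was at 3863 and 5246 in AAT-treated, 2674 and 4321 in diabetic, and 5634 and 5625 in normoglycemic fat. The diabetic arrays lay below the normoglycemic ones by −0.71 ± 0.36, and the second kept probe set gave −0.85. Prdx4, of the endoplasmic reticulum, was at 1295 and 728 in AAT-treated, 1139 and 1582 in diabetic, and 508 and 1007 in normoglycemic fat (0.84 ± 0.42 in diabetic against normoglycemic fat). Its other 2 kept probe sets gave −0.02 and −0.14. Prdx1 probe sets also carry the symbol Gm21399 and were left out by the rule. Prdx5 and Prdx6 were not among the members either.

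Of the 5 thioredoxins and thioredoxin reductases, 4 were below 0 in diabetic against normoglycemic fat, where 53.6% of all genes were. Txnrd1 and Txnrd2, which are among the 4, turned in sign under at least 1 of the 14 alternatives in processing. Txn1, the cytosolic thioredoxin, was at 4848 and 8220 in AAT-treated, 5655 and 7339 in diabetic, and 13946 and 8232 in normoglycemic fat. Both normoglycemic arrays were above all others, normoglycemic 2 by little over AAT-treated 2. The difference was −0.76 ± 0.42 in AAT-treated against normoglycemic and −0.73 ± 0.42 in diabetic against normoglycemic fat, and without normoglycemic 1 it was −0.38 and −0.35. The mitochondrial thioredoxin Txn2 differed by −0.63 ± 0.41 in diabetic against normoglycemic fat, and its other kept probe sets gave 0.05 and −1.13. Its reductase Txnrd2 differed by −0.67 ± 0.45, or by −0.23 without normoglycemic 1, and its 3 other kept probe sets gave 1.26, 0.27 and −0.11. The cytosolic reductase Txnrd1 differed by −0.12 ± 0.33. Txnrd3, a reductase with a glutaredoxin domain known from testis, was at 762 and 441 in AAT-treated, 1133 and 1033 in diabetic, and 795 and 728 in normoglycemic fat, so the diabetic arrays were highest. It differed by −0.82 ± 0.34 in AAT-treated against diabetic fat (adjusted p = 0.961) and by 0.47 ± 0.34 in diabetic against normoglycemic fat.

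Of the 10 kept thioredoxin domain and thioredoxin-like genes, several fold proteins in the endoplasmic reticulum. In diabetic against normoglycemic fat 7 of these 10 had differences above 0, with a median of 0.25. Over all genes 53.6% were below 0. Txndc16 differed by 0.71 ± 0.39, Txndc5 by 0.40 ± 0.41 and Txnl1 by 0.76 ± 0.36. The other kept probe set of Txndc5 gave −0.01, and those of Txnl1 gave −1.25 and 0.95. For Txndc15 the brightest probe set gave 0.49 and the other −0.41. Txndc17, a cytosolic thioredoxin-related protein, was at 5705 and 3861 in AAT-treated, 7589 and 7744 in diabetic, and 5915 and 8953 in normoglycemic fat. AAT-treated arrays were the lowest on this probe set, by −0.70 ± 0.37 against diabetic fat, but the 3 other kept probe sets gave 0.50, 0.29 and −0.16 in that comparison. Its difference between diabetic and normoglycemic fat was 0.07 ± 0.37, where those 3 gave −0.81, −1.07 and −0.27.

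Probe sets of the same gene often disagreed. Of the 25 members with more than 1 kept probe set, 12 had the same sign in all of them between diabetic and normoglycemic fat. The number was 13 for AAT-treated against diabetic and 16 for AAT-treated against normoglycemic fat. Gclm, Txnip, Gstm1, Prdx2, Cat, Gclc, Gsr and Txn1 were among the 12. Gsta3, Gpx4, Prdx4, Sod1, Sod2, Srxn1, Txndc17 and Txnl1 were among the others, and for Txnl1 the 3 values were 0.76, −1.25 and 0.95. When each gene was given by the mean of its kept probe sets, the members' median was −0.25, against −0.07 over all genes. At an unadjusted p under 0.05 by limma, 9 of 58 members were then lower and 2 higher. Of all 13043 genes 647 were lower and 580 higher.

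**Figure D3:**
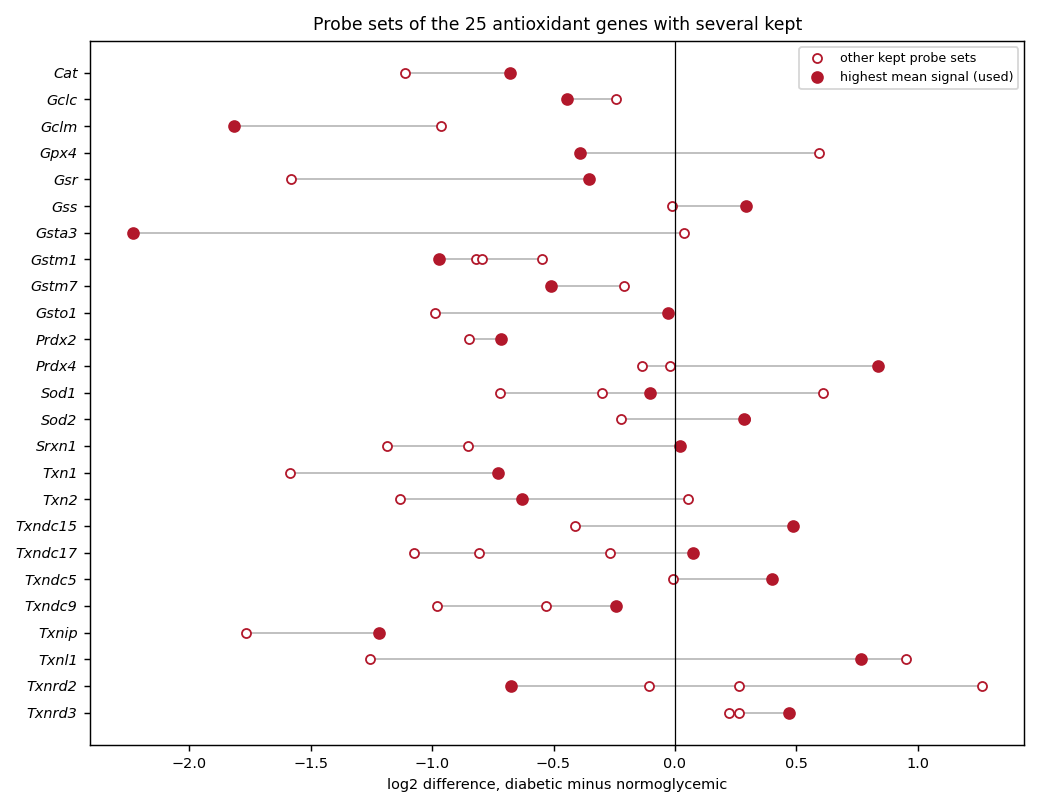
Log2 difference, diabetic minus normoglycemic fat, of each kept probe set of the 25 antioxidant genes that have several, 1 gene per row; filled points are the probe set with the highest mean signal and open points the others. Both Gclm points (−1.82 and −0.96) and both Txnip points (−1.22 and −1.77) lie left of 0, whereas the Gsta3 points are at −2.23 and 0.04.

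Genes around these enzymes were described from a further list of 67, of which 60 were kept. None passed by limma, and their medians were −0.10 in diabetic against normoglycemic, −0.04 in AAT-treated against diabetic and 0.01 in AAT-treated against normoglycemic fat. Unadjusted, 3 were lower (5%; 1.83% of all genes) and 5 higher (8.33%; 2.94%) in AAT-treated against diabetic fat. In AAT-treated against normoglycemic fat 2 were lower (3.33%; 1.72% of all genes) and 4 higher (6.67%; 3.41%). In diabetic against normoglycemic fat 2 were lower (3.33%; 4.62% of all genes) and 5 higher (8.33%; 5.27%). Nfe2l2, which encodes Nrf2, was at 2530 and 3157 in AAT-treated, 1666 and 1441 in diabetic, and 1921 and 2700 in normoglycemic fat, and differed by 0.84 ± 0.33 in AAT-treated against diabetic fat (adjusted p = 0.961). Of the 7 Nrf2 control genes, 4 were higher in AAT-treated against diabetic fat at an unadjusted p under 0.05, as were 2.94% of all genes: Nfe2l2, Sqstm1, and the small Maf partners Maff (1.93 ± 0.53) and Mafk (0.86 ± 0.33). The other small Maf gene, Mafg, was at −0.64 ± 0.32 there and at 1.01 ± 0.32 in diabetic against normoglycemic fat. Chac1, which degrades glutathione, was at 837 and 792 in AAT-treated, 433 and 545 in diabetic, and 1469 and 1271 in normoglycemic fat, separating the groups (−1.36 ± 0.31 in diabetic against normoglycemic fat).

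Of 7 kept genes that supply NADPH to both thiol systems, 6 had differences below 0 in AAT-treated against diabetic fat. In diabetic against normoglycemic fat 5 were above 0. Over all genes 48.8% and 53.6% were below 0 in these comparisons. Pgd, of the pentose phosphate pathway, was at 3801 and 1958 in AAT-treated, 7692 and 15102 in diabetic, and 2762 and 2545 in normoglycemic fat, with −1.95 ± 0.45 in AAT-treated against diabetic and 1.99 ± 0.45 in diabetic against normoglycemic fat. Malic enzyme, Me1, differed by −1.49 ± 0.47 and 0.92 ± 0.47 in the same comparisons. These genes also serve lipid synthesis. Of the 5 kept genes for superoxide-producing enzymes, 5 had differences above 0 in diabetic against normoglycemic fat, with a median of 0.70. By limma 1 of them was higher at an unadjusted p under 0.05 (5.27% of all genes). Without overlap 1 was higher (20.2% of all genes). Cybb, the phagocyte oxidase subunit, differed by 0.88 ± 0.55. In the list for sulfoxide repair, sestrins and metallothioneins, 8 of 9 were below 0 in diabetic against normoglycemic fat and 9 of 9 above 0 in AAT-treated against diabetic fat, led by Msra (−0.89 ± 0.33) in the first.

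Marker transcripts of other cells were uneven between arrays, some by group and some within groups. The 7 red cell and platelet markers on the array, whose cells are rich in Gpx1, Prdx2 and Cat, summed to 11292 and 4764 in AAT-treated, 3238 and 3812 in diabetic, and 10547 and 12718 in normoglycemic fat. All 6 of those kept were below 0 in diabetic against normoglycemic fat, with Slc4a1, the red cell anion exchanger, at 815 and 359 in AAT-treated, 148 and 131 in diabetic, and 1146 and 1397 in normoglycemic fat. The 10 macrophage markers summed to 19053 and 13343 in AAT-treated, 15633 and 32553 in diabetic, and 9045 and 8516 in normoglycemic fat. The 8 adipocyte markers summed to 328892 and 554689 in AAT-treated, 342096 and 540902 in diabetic, and 854680 and 519544 in normoglycemic fat. The 8 smooth muscle markers summed to 62864 and 96492 in AAT-treated, 15624 and 10731 in diabetic, and 8166 and 32556 in normoglycemic fat. For the 7 lymphocyte markers on the array, of which 2 were kept, the sums were 20166 and 5158 in AAT-treated fat. They were 978 and 3151 in diabetic, and 1076 and 1037 in normoglycemic fat. Liver transcripts were uneven between arrays, with Ttr at 31.7 and 2591 in AAT-treated, 184 and 2521 in diabetic, and 28.9 and 134 in normoglycemic fat. The part of these cells, and of the beta-actin ratio, in the differences of the antioxidant genes was not tested.

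**Figure D4:**
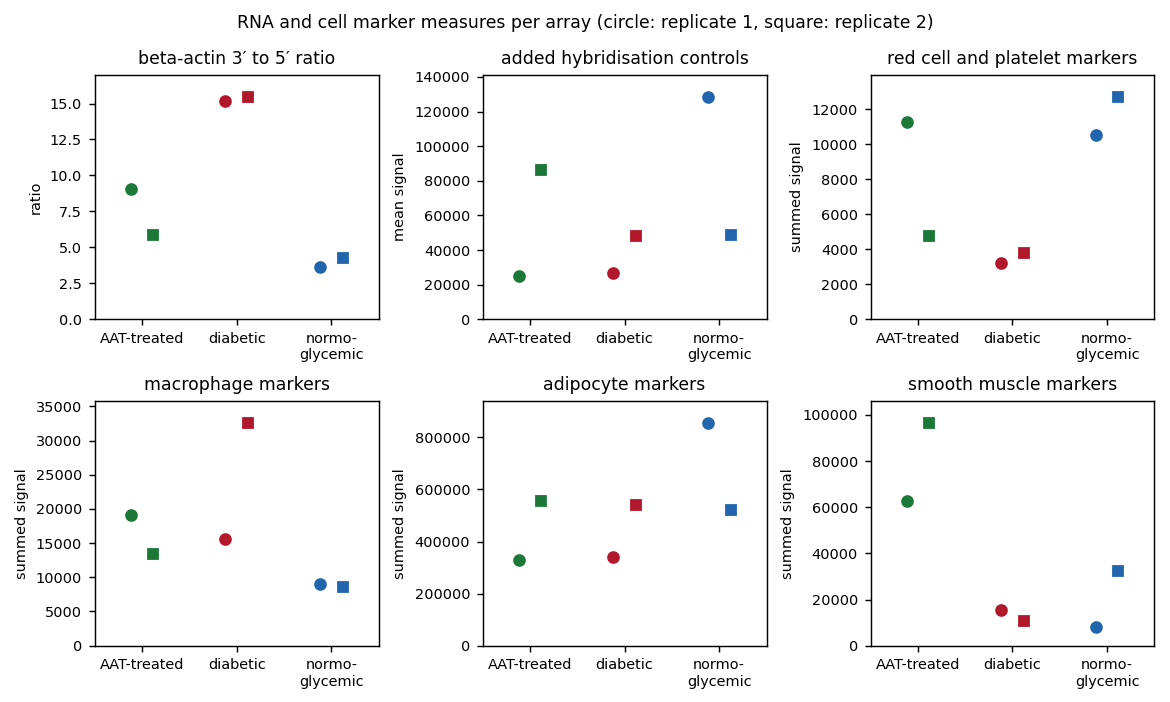
Beta-actin 3′ to 5′ ratio, mean signal of the added hybridisation controls, and summed signals of red cell and platelet, macrophage, adipocyte and smooth muscle markers on each array of AAT-treated, diabetic and normoglycemic fat; circles are replicate 1 and squares replicate 2. The ratio is highest in diabetic fat (15.2 and 15.5), where the red cell and platelet sum is lowest (3238 and 3812).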

How the data were processed

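The authors' deposited values are linear signal intensities of 45101 probe sets. MAS5 produced them, as the submitters' processing notes state, with a version and genome build not given in the sources used here. It corrects background on each array separately and scales it by a constant; the mean signal trimmed by 2% was 500.0 on every array, and this scaling was kept. The median signal was 175.7 to 272.2. Precision is limited by how few arrays there are.

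Gene symbols came from the platform annotation: 34945 probe sets had 1 symbol, 932 several and 9160 none, beside 64 controls; 34741 of the 34945 matched the RefSeq gene table. Values were taken as log2(signal + 74.5), the 25th percentile of all values, which understates differences of weak genes. Probe sets with a mean signal above 164.4 (40th percentile) were kept, and the brightest stood for its gene, giving 13043 genes. The test was limma 3.58.1 (R 4.3.3), fitted to the 6 arrays with a mean for each group and eBayes with trend (2-sided, 3 residual and 5.36 prior degrees of freedom), Benjamini-Hochberg adjusted with a threshold of 0.05; ± SE is the moderated standard error. An exact permutation test was not run, since 2 against 2 arrays cannot reach the threshold. The fit was also run on simulated data with known changes, whose outcome is not reported here. Alternatives were 2 scalings, 2 offsets, no filter, the mean of probe sets, robust moderation (statmod), a replicate block and each array left out.

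The genes given per array were Gpx1, Gsta3, Gclm, Prdx3, the 11 genes named whole in the rule, the 3 brightest of each family and the 6 with the smallest p in each comparison; Gsta4, Gstm5 and a few others were added after their values were seen. Members and lists were chosen with earlier results of these data known.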

Additional observations from a re-analysis of the deposited data

How the results depend on the processing

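With no filter 1 gene passed the adjusted threshold in AAT-treated against diabetic fat, and without normoglycemic 2 there were 3 in AAT-treated against normoglycemic fat; under the other alternatives, and in diabetic against normoglycemic fat under all 14, the count stayed at 0. In all 3 comparisons the members' median moved by no more than 0.24, its spread between replicates. That spread is wider than the medians themselves (−0.19, 0.02 and −0.18), so this could not show them to be stable. It came mostly from the diabetic arrays, with an SD of 0.42, against 0.06 in AAT-treated and 0.04 in normoglycemic fat. When single arrays were left out the median ran from −0.30 to −0.09 in diabetic against normoglycemic fat. It ran from −0.11 to 0.16 in AAT-treated against diabetic fat, and from −0.35 to −0.12 in AAT-treated against normoglycemic fat. Centring each array on its median gave a median of all genes of 0.06 in place of −0.06 in diabetic against normoglycemic fat and of 0.08 in place of −0.03 in AAT-treated against normoglycemic fat; the members' medians were then −0.08 and −0.07, with 33 and 30 of 58 below 0. Of the 58 members, 34 kept their sign in all 14 alternatives in diabetic against normoglycemic, 27 in AAT-treated against diabetic and 30 in AAT-treated against normoglycemic fat. The replicate numbers did not pair the arrays. Deviations of same-numbered arrays correlated at −0.12 for diabetic with AAT-treated and 0.08 for diabetic with normoglycemic fat. For AAT-treated with normoglycemic fat the value was −0.51, so differently numbered arrays of these groups deviated together. Normoglycemic 1 had its highest correlation, 0.839, with AAT-treated 2. With the replicate block 0 genes passed in each comparison, and genes at an unadjusted p under 0.05 numbered 895, 452 and 502, against 1291, 622 and 669 without it. With single arrays left out that number ran from 554 (without normoglycemic 1) to 1939 (without normoglycemic 2) in diabetic against normoglycemic fat, with 745 without diabetic 1 and 766 without diabetic 2. It ran from 260 (without AAT-treated 2) to 1269 (without AAT-treated 1) in AAT-treated against diabetic fat, and from 279 (without normoglycemic 1) to 1511 (without normoglycemic 2) in AAT-treated against normoglycemic fat. The causes were not tested.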
